A study of Mus musculus with 3 samples.

Results

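Intraflagellar transport, ciliary and centrosome genes were followed between whole mouse metanephroi of 11.5 days post coitum (dpc) and microdissected metanephric mesenchyme of 10.5 dpc. The genes were taken by symbol, each with a log2 ratio on all 3 arrays. They were numbered Ift, Bbs and Cep genes, Nphp4, Tctn2, Tctn3, Pkd1, Arl3 and a set of other transport and transition zone subunits. The choice also covered Pkd2, Pkhd1, Arl6, Arl13b and Tctn1, but no probe had one of these as its only symbol, so they were not measured. The platform carried 52 symbols of the choice, and 49 of them had a full set of values, out of 14047 genes tested in all. Both tissues came from embryos of CD1 mice, an outbred strain, as a pool of both sexes and with no treatment named. Each array carried the later tissue in channel 2 and the earlier one in channel 1, as amplified RNA. Arrays 1 and 2 had the dye order red/green and array 3 had green/red. The labels do not name separate dissections for the arrays, so a p-value here reflects array-to-array spread alone, and that spread may be technical.

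The primary cilium is a microtubule-based antenna that grows from the older centriole of a cell's centrosome. Kinesin-2 motors carry trains of the IFT-B and IFT-A complexes to its tip, and the dynein-2 motor carries them back. The BBSome rides on these trains and moves membrane proteins, while the transition zone at the base gates what enters. In the kidney, loss of these parts is known for cysts and nephronophthisis, and hedgehog signalling in the embryo passes through the cilium.

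A ratio here is the log2 of one channel over the other on the same spot. The labels do not say which tissue was divided by which, so positive and negative ratios stand for more RNA in opposite tissues without saying which. With whole tissue as the source, fewer cells of a type and less RNA per cell cannot be told apart. A ratio also gives no level, so it does not show whether a gene was expressed above background.

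The promoter windows below are shown because some members hold a feature there that the choice by symbol did not use. RFX factors, which switch on ciliary genes, bind the X-box. Its consensus, a palindrome-like stretch with open positions in both arms, was searched on both strands, in RefSeq windows of 300 bases, 250 before and 50 after each gene start (build GRCm38.p6). Promoters were found for 45 of the 49 genes, as 50 windows. The match is in capitals, with 8 bases of flank on each side, along the gene's strand, and the bracket gives the position in that build and the strand.
Bbs7 (chr3:36613489-36613518, minus): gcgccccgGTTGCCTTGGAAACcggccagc
Cep19 (chr16:32099803-32099832, plus): agccttctGTTGCCTTGGGAACgatcctcg
Cep83 (chr10:94688768-94688797, plus): ccctccgaGTTTCCCGGGCTACctcaacct
Ift22, farther match (chr5:136908079-136908108, plus): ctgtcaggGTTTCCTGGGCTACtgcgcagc
Ift22, nearer match (chr5:136908109-136908138, plus): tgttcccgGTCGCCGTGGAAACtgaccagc
Ift57 (chr16:49699199-49699228, plus): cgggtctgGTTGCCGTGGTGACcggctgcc
Nphp4 (chr4:152477903-152477932, plus): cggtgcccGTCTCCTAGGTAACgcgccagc
Tctn2 (chr5:124598679-124598708, plus): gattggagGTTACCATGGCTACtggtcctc

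An X-box match lay in 7 of the 50 member promoters, which is 14% of them. The same letters were found in 1.29% of all 32851 promoters in the table and in 1.58% of the 13748 promoters of genes tested. The 7 genes belong to different parts of the apparatus: Ift22 and Ift57 to IFT-B, Bbs7 to the BBSome, Nphp4 and Tctn2 to the transition zone, and Cep19 and Cep83 to the base of the cilium. They did not share a sign. Cep19, Ift57, Ift22 and Cep83 had positive mean log2 ratios of 0.80, 0.58, 0.32 and 0.025, and Bbs7, Nphp4 and Tctn2 had negative ones of -0.085, -0.28 and -0.32. Counted from the gene start, the first base of the match lay between position -231 in Nphp4 and position 22 in Cep19. The E2F motifs TTTCCCGC and TTTGGCGC, bound by cell cycle regulators, were found on either strand in 3 of the 50 member promoters, or 6%, in 2.44% of promoters of genes tested and in 1.56% of all promoters. CCAAT, the NF-Y motif, was found on either strand in 54% of member promoters, 37.7% of promoters of genes tested and 37.4% of all promoters. A match of letters is a description of the window and was not tested for binding.

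**Figure D1:**
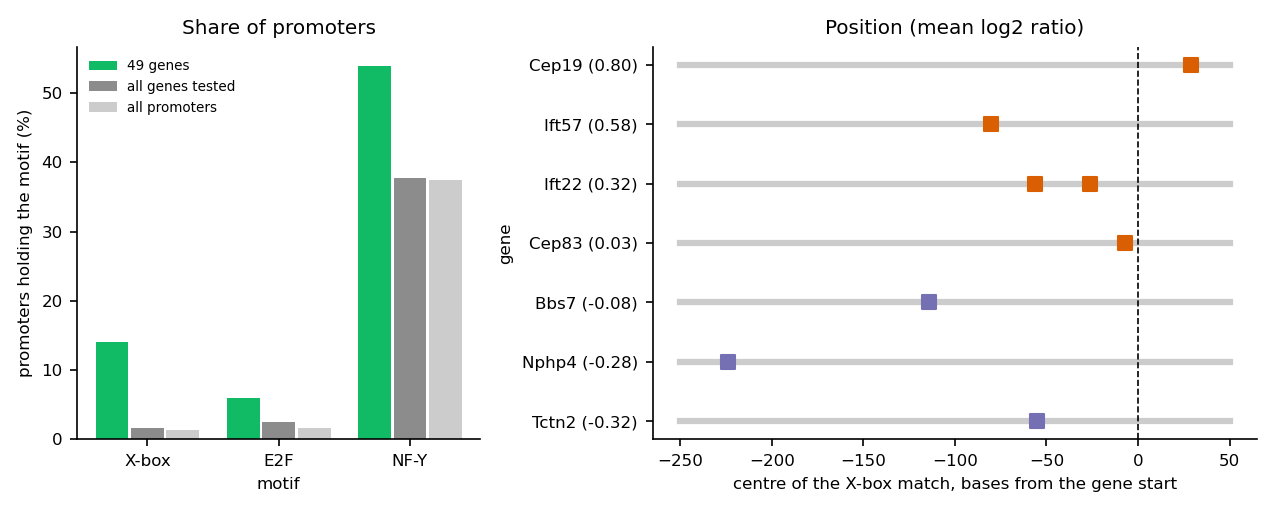
Left, share of promoters (%) that hold each motif, for the 49 genes, for all genes tested and for all promoters in the table. Right, centre of each X-box match in bases from the gene start for the 7 genes that hold one, with the gene's mean log2 ratio in brackets and orange for a positive and purple for a negative mean; the matches lie on both sides of the sign.

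No member passed the adjusted threshold. By limma, 0 of the 49 genes had an adjusted p under 0.05, where 0% of all genes did, and the smallest adjusted p among them was 0.157, against 0.149 over all genes. At an unadjusted p under 0.05 there were 12 members, which is 24.5%, where 19.6% of all genes were found. These were 11 positive and 1 negative member, and the background was 9.89% positive and 9.69% negative. The 11 positive genes make up 22.4% of the members. The count in either sign depended on the arrays. It was 3 members without array 1, or 6.12%, where all genes had 8.23%, and 4 without array 2, or 8.16%, where all genes had 10.3%. It was 8 without array 3, or 16.3%, where all genes had 21%. The members' share was thus above that of all genes with the 3 arrays as deposited and below it in the 3 fits with an array left out. With the sign of array 3 turned the count was 0, where all genes had 5.55%. That turn cancels any ratio that the 3 arrays share, so a drop there follows from the turn itself. With that turn the means of these positive genes were 0.24 in Ttc8 to 0.69 in Ift20, apart from Ift74 and Cep97, which were just below 0.

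The members' ratios were small. Their means ran from -0.42 to 0.98 and 0 of them reached 1 in log2 size, which 8.06% of all genes did. The median was 0.049, against -0.0019 over all genes, and 31 means were positive and 18 negative, where 49.8% of all genes had a positive mean. On every array 25 members kept one sign, or 51%, where 45.5% of all genes had it. Of these 18 were positive and 7 negative, and the background was 22.9% and 22.5%. The SD over the arrays had a median of 0.27 among members and 0.34 among all genes, and it was at least as large as the mean in 25 members, or 51%, and in 57.3% of all genes.

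The arrays differed. On array 2, 34 of the 49 members were positive and their median was 0.43, where 52.7% of all genes were positive and had a median of 0.041. On array 1, 30 members were positive with a median of 0.15, where 53% of all genes were positive and had 0.040. On array 3, which had the other dye order, 24 members were positive and their median was -0.0072, where 45.5% of all genes were positive and had -0.059. The members' median was farthest above that of all genes on array 2 and closest to it on array 3. With array 3 turned, 13 of the 49 means changed sign. With a dye term in the fit, 10 members had an unadjusted p under 0.05, 9 of them positive, which is 20.4% of members, where all genes had 21.3%. The members' median was 0.11 without array 1, -0.024 without array 2, 0.24 without array 3 and 0.22 with array 3 turned, so its sign rested on array 2.

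**Figure D2:**
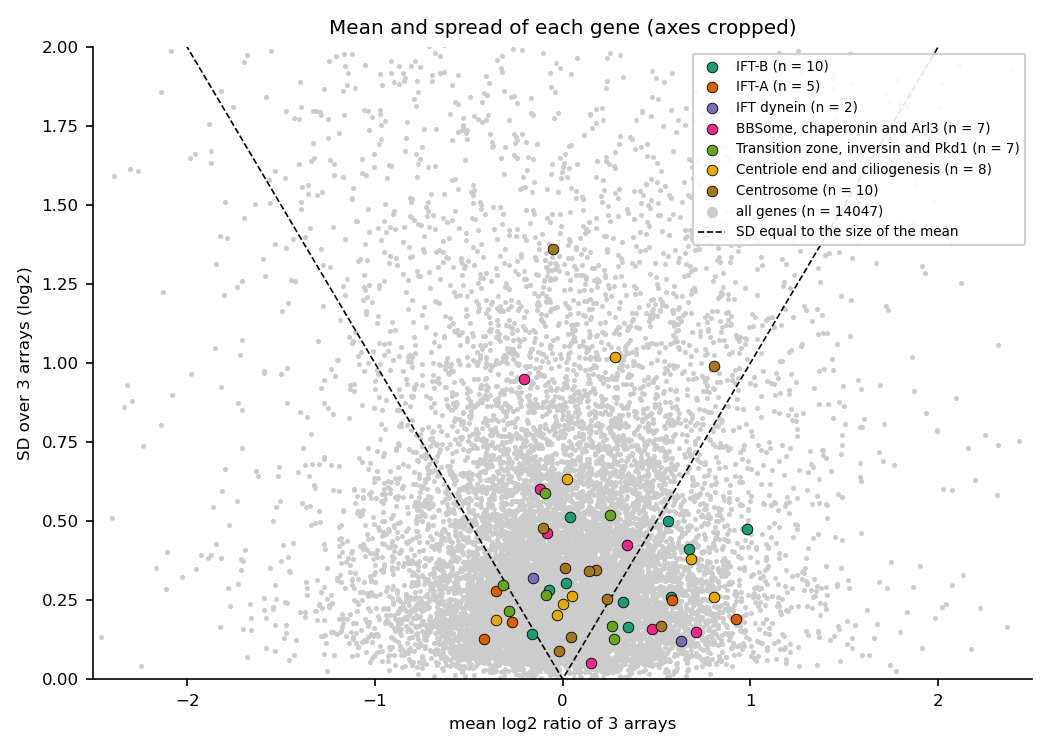
Mean log2 ratio of the 3 arrays (x axis) against the SD over them (y axis, log2) for the 49 genes, coloured by role, and for all 14047 genes in grey, of which 515 lie outside the plotted range. Points above the dashed lines have an SD larger than the size of the mean; 25 of the 49 genes have an SD at least that large.

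IFT-B carries cargo toward the tip of the cilium, and 8 of its 10 measured genes had a positive mean, where 49.8% of all genes did. Ift20, whose protein also sits at the Golgi, had log2 ratios of 1.20, 1.31 and 0.44 on arrays 1, 2 and 3. That is a mean of 0.98 ± 0.48 (SD, n = 3), a 1.98-fold ratio, at a limma adjusted p of 0.179. Its ratio was positive on every array and lowest on array 3. Ift57, one of the X-box genes above, had 0.84, 0.58 and 0.32, with a mean of 0.58 ± 0.26 at a limma adjusted p of 0.212. Ift74, which binds tubulin together with Ift81, had 0.24, 0.72 and 1.06, with a mean of 0.68 ± 0.41 at a limma adjusted p of 0.229. Array 3 was its highest array, so with that array's sign turned its mean fell to -0.032.

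Ift88, whose disruption gives mice polycystic kidneys, was also positive on every array but spread widely. It had 0.47, 1.10 and 0.12, with a mean of 0.56 ± 0.50 and a 95% interval from -0.14 to 1.26. Ift81 had 0.40, 0.48 and 0.17, with a mean of 0.35 ± 0.16. Ift22, a small GTPase-like subunit whose promoter held both X-box matches shown above, had 0.44, 0.48 and 0.040, with a mean of 0.32 ± 0.24. Both were closer to 0 on array 3 than on the other arrays. Ift172, the largest IFT-B subunit, was negative on every array at -0.016, -0.17 and -0.30, with a mean of -0.16 ± 0.14. The remaining Ift27, Ift46 and Ift80 had means from -0.071 to 0.038 and arrays on both sides of 0. The median of the 10 genes was 0.34, and it ranged from 0.26 to 0.45 with an array left out and was 0.27 with array 3 turned. In all, 3 of the 10 had an unadjusted p under 0.05 by limma, all positive. Over all genes 19.6% did, 9.89% of all genes being positive ones.

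IFT-A, which returns with dynein-2 and brings membrane proteins into the cilium, divided by subunit. All 5 measured genes kept one sign over the 3 arrays, 2 positive and 3 negative, where 45.5% of all genes kept one. Ift43 had 0.94, 1.11 and 0.73, with a mean of 0.93 ± 0.19, a 1.90-fold ratio, at a limma adjusted p of 0.157, the smallest of any member. Ift140 had 0.41, 0.87 and 0.47, with a mean of 0.58 ± 0.25 at a limma adjusted p of 0.208. Their lowest array lay above the highest array of the other 3 genes.

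Ttc21b, the IFT139 subunit and a nephronophthisis gene, had -0.34, -0.35 and -0.56, with a mean of -0.42 ± 0.13 at a limma adjusted p of 0.245. It was the lowest mean of the 49 and the single negative member with an unadjusted p under 0.05. With array 3 turned its mean was -0.041. Wdr35, the IFT121 subunit, had -0.68, -0.16 and -0.23, with a mean of -0.36 ± 0.28. Ift122 had -0.10, -0.25 and -0.46, with a mean of -0.27 ± 0.18, and its mean was 0.036 with array 3 turned. The 95% intervals of Wdr35 and Ift122 both included 0, reaching 0.14 and 0.16. The median of the 5 genes was -0.27, and it ranged from -0.28 to -0.18 with an array left out. With array 3 turned it was 0.036. That turn cancels ratios that the arrays share, so the turned values of the median, Ttc21b and Ift122 do not measure stability.

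The heavy chain of the returning dynein, Dync2h1, had 0.73, 0.66 and 0.50, with a mean of 0.63 ± 0.12 at a limma adjusted p of 0.173. Its arrays lay close together, but a second probe of the gene went the other way. That probe had -1.03 on array 1 and -0.94 on array 3 and no value on array 2, so it did not enter the mean. Joining it in, as values on at least 2 arrays, gave a mean of 0.099. Wdr34, an intermediate chain of the same motor, had 0.081, -0.039 and -0.52, with a mean of -0.16 ± 0.32. Dync2li1, a light intermediate chain, had no value on any array.

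Among 7 genes of the BBSome, its chaperonin and the ciliary GTPase Arl3, 4 means were positive and 3 negative. Over all genes 49.8% were positive. Arl3, which releases lipid-anchored cargo inside the cilium, had 0.84, 0.73 and 0.55, with a mean of 0.71 ± 0.15, a 1.63-fold ratio, at a limma adjusted p of 0.165. Ttc8, the BBS8 subunit, had 0.41, 0.65 and 0.36, with a mean of 0.47 ± 0.16 at a limma adjusted p of 0.222. Both genes were positive on every array and had an unadjusted p under 0.05 by limma. They were 2 of the 7 genes, or 28.6%, where 19.6% of all genes were found. Bbs9 had the tightest values of any member, at 0.15, 0.10 and 0.21, and a mean of 0.15 ± 0.051. Bbs2 had 0.63, 0.54 and -0.15, with a mean of 0.34 ± 0.42, so array 3 lay apart from the others. Bbs5, Bbs7 and Bbs10, the last a chaperonin-like protein that helps to assemble the BBSome, had means from -0.20 to -0.085. Each of the 3 was positive on array 2 and negative on arrays 1 and 3.

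The transition zone genes lay on both sides of 0 and 0 of the 7 genes, Pkd1 included, had an unadjusted p under 0.05 by limma. Over all genes this share was 19.6%. Tctn2, a tectonic, had -0.15, -0.15 and -0.66, with a mean of -0.32 ± 0.30. Nphp4, a nephrocystin, had -0.53, -0.12 and -0.21, with a mean of -0.28 ± 0.22. Both were negative on every array. Cep290, which bridges microtubules and membrane in the transition zone, had -0.032, 0.85 and -0.062, with a mean of 0.25 ± 0.52. Its positive mean came from array 2 alone, and without that array the mean was -0.047. Invs, or inversin, known for left-right asymmetry and cystic kidneys, had -0.31, -0.16 and 0.21, with a mean of -0.087 ± 0.27. Tctn3 had 0.49, -0.069 and -0.69, with a mean of -0.092 ± 0.59, and its arrays spanned 0 widely. Cep162, which brings transition zone proteins to the axoneme, was positive on every array with a mean of 0.27.

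Pkd1 encodes polycystin 1, a ciliary membrane protein whose loss is the leading cause of dominant polycystic kidney disease. It had 0.091, 0.43 and 0.28, with a mean of 0.26 ± 0.17 and a 95% interval from -0.16 to 0.69. It was positive on every array, and 56.1% of all genes had a larger mean in size.

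Genes of the distal centriole and of early ciliogenesis held both some of the larger positive means and several near 0. Cep19, which recruits the machinery that starts ciliogenesis, had 0.73, 1.09 and 0.59, with a mean of 0.80 ± 0.26, a 1.75-fold ratio, at a limma adjusted p of 0.169. Cep97, which with Ccp110 caps the centriole and holds back the cilium, had 0.29, 0.71 and 1.05, with a mean of 0.69 ± 0.38 at a limma adjusted p of 0.215. Both genes were positive on every array, and array 3 was the highest array of Cep97 and the lowest of Cep19. Their means with array 3 turned, -0.016 for Cep97 and 0.41 for Cep19, reflect this and do not measure stability. Ofd1, which limits centriole length, had -0.32, -0.19 and -0.56, with a mean of -0.36 ± 0.19, negative on every array. Array 3 was its lowest array, so with array 3 turned its mean was 0.017.

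Cep83, a distal appendage protein that docks the centriole to the membrane, had 2 probes. Their means were -0.13 and 0.18, and the gene had 0.42, 0.36 and -0.71 with a mean of 0.025 ± 0.63. Array 3 was opposite to the others on the gene's mean. Cep41, needed for tubulin glutamylation in the cilium, had -0.26, 0.12 and 0.047, with a mean of -0.031 ± 0.20. Cep20, Cep43 and Cep89 had means from 0.0040 to 0.28, and each had arrays of both signs.

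**Figure D3:**
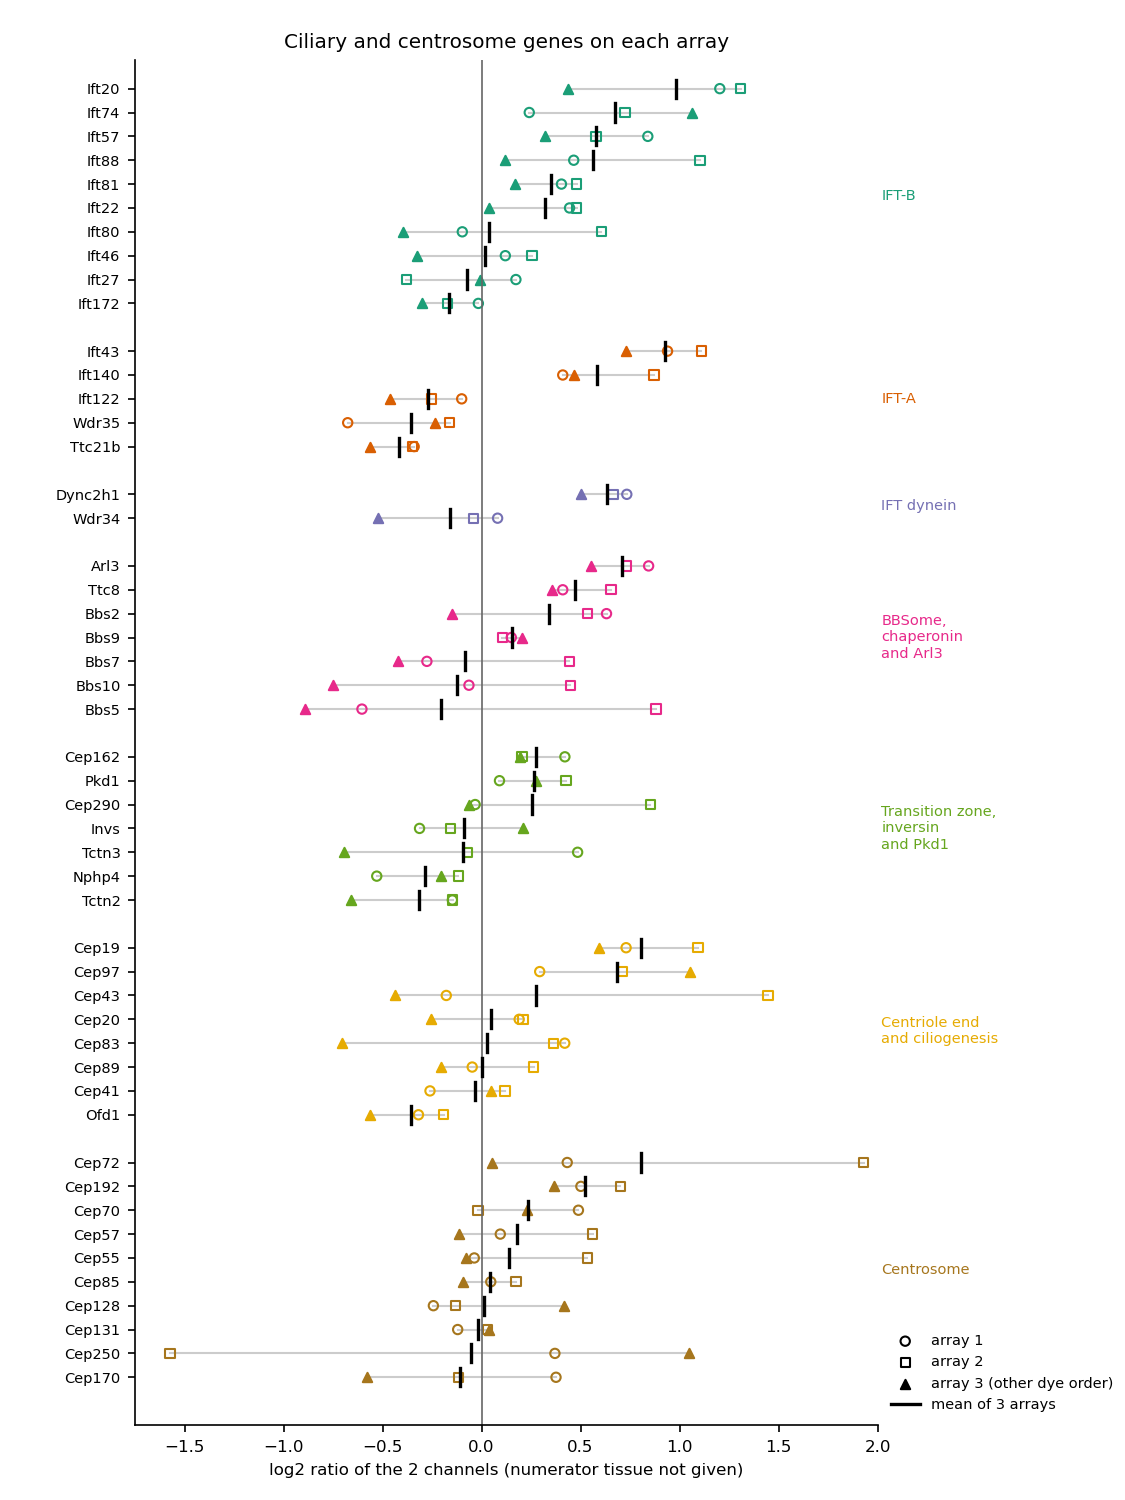
Log2 ratio (x axis) of each of the 49 genes on array 1 (circles), array 2 (squares) and array 3 (filled triangles, the other dye order), with the mean as a black tick, grouped by role and sorted by mean. All 5 IFT-A genes keep one sign over the arrays, where 45.5% of all genes do, and most IFT-B genes lie to the right of 0.

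Of 10 measured centrosome genes with no role of their own above, 7 means were positive and 3 negative. Over all genes 49.8% were positive. At an unadjusted p under 0.05 by limma, where 19.6% of all genes were found, there was 1 gene. This was Cep192, which gathers pericentriolar material for the spindle, with 0.50, 0.70 and 0.37, a mean of 0.52 ± 0.17 and a limma adjusted p of 0.205. Its arrays lay close together. Cep72 had a larger mean, 0.81 ± 0.99, but this came mostly from array 2, with 0.43, 1.93 and 0.055. Cep70 had 0.49, -0.017 and 0.23, with a mean of 0.23 ± 0.25. Cep57, a pericentriolar protein, had 0.095, 0.56 and -0.12, with a mean of 0.18 ± 0.35. Cep55, which acts in the last step of cell division, had -0.037, 0.53 and -0.077, with a mean of 0.14 ± 0.34. In Cep55 and Cep57, array 2 was the high one and array 3 was negative.

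Cep85, Cep128, Cep131, Cep170 and Cep250 had means from -0.11 to 0.042 and arrays of both signs. Cep250, the protein that links both centrioles, had the widest spread of any member, with -1.57 on array 2 and 1.05 on array 3. A second probe of Cep128 had 0.89 on array 1 and -1.15 on array 3. Cep112 and Cep350 had no value on array 2 and were not tested.

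**Figure D4:**
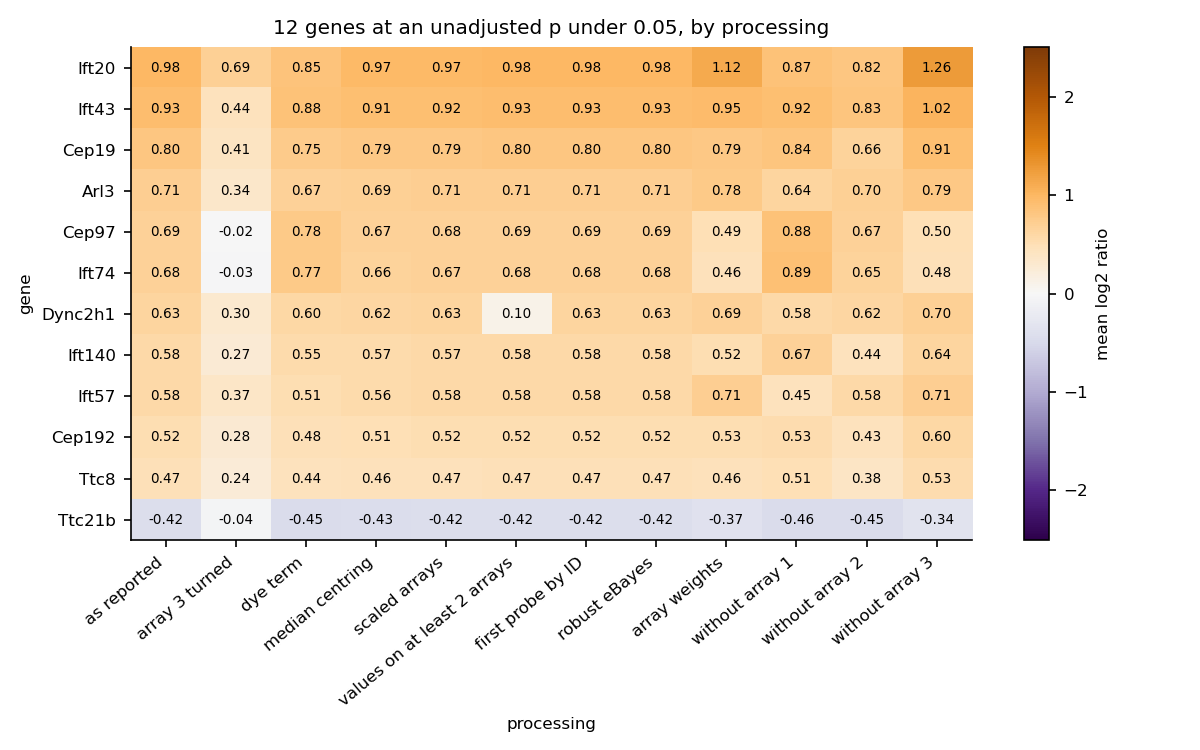
Mean log2 ratio (colour and printed value) of the 12 genes at an unadjusted p under 0.05 (rows) as reported and under each other processing (columns). Ift20, Ift43 and Cep19 stay at 0.41 or more throughout, and Dync2h1 is near 0.10 once its second probe is joined in. Ift74 and Cep97 lie just below 0 with array 3 turned. That turn cancels ratios that the arrays share, so its column does not measure stability.

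Genes of the same complexes that the choice by symbol left out were taken from lists by role. Over all genes tested, 49.8% had a positive mean. IFT-B had 4 more measured genes, 3 of them positive. Hspb11, the IFT25 subunit that pairs with Ift27, had 1.47, 1.19 and 1.23, with a mean of 1.30 ± 0.15 at a limma adjusted p of 0.149. Hspb11 had a larger mean than any of the 49 genes. Cluap1 had a mean of 0.29 ± 0.29 and Ttc30a1 had -0.50 ± 0.56. Tulp3, which IFT-A takes into the cilium, was negative on every array with a mean of -0.56 ± 0.42, the side of Ttc21b, Wdr35 and Ift122.

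Motor genes outside the choice numbered 6 measured, 4 positive and 2 negative, and 3 had an unadjusted p under 0.05 by limma. Over all genes 19.6% did. Kif3a, a motor subunit of kinesin-2, had 0.73, 0.80 and 0.55, with a mean of 0.70 ± 0.13 at a limma adjusted p of 0.165. Kifap3, the accessory subunit of that kinesin, had 0.51, 0.66 and 1.48, with a mean of 0.88 ± 0.52. Tctex1d2, a light chain of dynein-2, had 0.67, 0.74 and 1.05, with a mean of 0.82 ± 0.20 at a limma adjusted p of 0.160. All 3 were positive on every array.

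Of 10 further genes around the BBSome and Arl GTPases, 2 positive and 3 negative ones had an unadjusted p under 0.05 by limma. Over all genes the shares were 9.89% positive and 9.69% negative. Lztfl1, which regulates BBSome entry, had a mean of 0.95 ± 0.28, and Mkks, a chaperonin partner of Bbs10, had 0.67 ± 0.033. Unc119b, which Arl3 makes release its myristoylated cargo, had -0.75 ± 0.035 and lay opposite to Arl3. Of 9 further transition zone genes 7 had a positive mean, among them Rpgr at 0.66 ± 0.33, B9d1 at 0.59 ± 0.41 and Tmem216 at 0.37 ± 0.26. Of 9 further cystic kidney genes 5 were positive. Bicc1, an RNA-binding protein, had 0.76 ± 0.13, Cys1, a ciliary membrane-associated protein, had 1.40 ± 1.34 with 2.95 on array 3, and Ganab, a glucosidase needed for polycystin maturation, had -0.67 ± 0.25. Of 7 further distal appendage and ciliogenesis genes 2 were positive, and Kif24 had -0.53 ± 0.45, Odf2 0.28 ± 0.55 and Ttbk2 0.15 ± 0.16.

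Centriole and pericentriolar genes outside the choice leaned the other way, with 8 positive and 14 negative means among 22 measured and a median of -0.17. Their lowest mean lay below that of any of the 49 genes. This was Tubg1, the gamma-tubulin gene that nucleates microtubules, which had -2.02, -1.71 and -2.36, with a mean of -2.03 ± 0.32 at a limma adjusted p of 0.149. Cetn3, a centrin of the centriole, had 1.38, 1.64 and 1.05, with a mean of 1.36 ± 0.30 at a limma adjusted p of 0.149. Nin, or ninein, of the subdistal appendages, had 1.10, 1.01 and 0.54, with a mean of 0.88 ± 0.30. In these 22 genes, 4 positive and 4 negative ones had an unadjusted p under 0.05 by limma, where 9.89% and 9.69% of all genes did.

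A list of RFX genes, Foxj1, Mcidas, Gmnc, Myb, Ccno and Tlcd4 gave 3 positive and 5 negative means among 8 measured. Not all of the listed genes encode transcription factors. Rfx1 had -0.51, -0.50 and -0.81, with a mean of -0.61 ± 0.17, negative on every array. Rfx4 had -0.47 ± 0.50 and Rfx3 had -0.43 ± 0.59. Motile cilium genes, such as axonemal dynein and radial spoke genes, gave 11 positive and 12 negative means among 23, with a median of -0.11. Ak7 had -0.88 ± 0.37, Rsph9 had -0.49 ± 0.17 and Lrrc6 had 0.46 ± 0.24. Hedgehog genes, whose receptor and effectors work in the cilium, gave 8 of each sign among 16 and a median of -0.0059, with Boc at 0.62 ± 0.23, Ptch1 at -0.77 ± 0.54 and Hhip at -0.99 ± 0.98.

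Markers of cells that the tissues could hold differed by list, with some medians away from 0 and others near it. Over all genes 49.8% had a positive mean. Means were negative for 7 of 7 endothelial, 7 of 7 limb and flank, 6 of 7 muscle and somite and 4 of 5 gut, liver and yolk sac genes, with list medians of -0.43, -1.44, -1.78 and -1.34. Renal stroma genes were positive in 5 of 6, with a median of 1.33, early nephron genes in 4 of 5, with 1.03, ureteric bud genes in 7 of 10, with 0.22, and mesenchyme genes in 7 of 14, with 0.0056. Macrophage genes were positive in 3 of 3, with a median of 0.70, though Cd68 among them had 0.029 ± 0.85. Neuron genes were positive in 3 of 5, with 0.090, and erythroid genes in 1 of 7, with -0.037. Only 1 of the 7 erythroid genes, Klf1, kept one sign over the arrays. Dividing cells duplicate their centrosomes and take down their cilia, and S phase genes were negative in 8 of 12, with a median of -0.45, and G2 and M phase genes in 6 of 11, with -0.17. The part of cell makeup or cell division in the ratios of ciliary genes was not tested. Age and dissected tissue differed together on every array, so their parts cannot be told apart.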

How the data were processed

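Two-colour Compugen mouse oligonucleotide arrays compared metanephroi of 11.5 dpc with metanephric mesenchyme of 10.5 dpc on 3 arrays. Per the labels, the authors read spots with Imagene 5.5, normalized by print-tip lowess and between arrays in R, fitted lowess over 20.0% of the data and set control channel values under 10 to 10. The deposited values are log2 ratios. No spot brightness was used here. Precision is limited by having 3 arrays, and signal over background is not known.

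Of 22702 rows, 21918 were gene probes, and 15340 had 1 symbol in the platform annotation and a value on all 3 arrays. Updating symbols through Entrez identifiers changed 0 of them. Probes of a symbol were averaged per array. Array 3 was kept as deposited, since over 19660 probes its Pearson correlations with arrays 1 and 2 were above 0, at 0.0517 and 0.0148. Its Spearman correlations with them were 0.211 and 0.171. As deposited, 7 of 7 limb and flank and 7 of 7 endothelial genes were negative on all 3 arrays. Among erythroid genes, 1 of 7 kept one sign. In R 4.3.3, limma 3.58.1 (lmFit, then eBayes) compared each gene's mean over arrays with 0 in a two-sided test, and p-values of all 14047 genes were adjusted by Benjamini-Hochberg with a threshold of 0.05. The script was first tested on simulated data. Intervals are limma's at 95%. Figures used Python 3.11.15 and its Matplotlib 3.10.9.

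Members and lists were chosen with earlier results of these data known. Named members were up to 5 per list by smallest unadjusted p, all with an unadjusted p under 0.05 or a mean of at least 1 in log2 size, a fixed set including Ift88, Pkd1 and Cep290, and genes whose probes had opposite signs; other list genes were up to 3 per list by smallest unadjusted p. The remaining 15 members are given by range, and values printed for single ones were chosen after they were seen. Alternatives were array 3 turned, a dye term, centring, scaling, values on at least 2 arrays, the first probe per gene, robust moderation, array weights and each array left out.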

Additional observations from a re-analysis of the deposited data

How the results depend on the processing

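At an adjusted p under 0.05 the count stayed at 0 of the genes under all 11 alternatives, which with 3 arrays shows little about stability. Turning array 3 cancels ratios that the arrays share, so that fit does not measure stability. With array 3 turned the other way, 0 members had an unadjusted p under 0.05, 0 of them positive, where 5.55% of all genes did, and 8 members had one sign on all arrays. The means of Cep97 (-0.016), Ift74 (-0.032), Ift122 (0.036), Ift172 (0.037), Ofd1 (0.017), Tctn2 (0.12), Tctn3 (0.37) and Wdr34 (0.19) then changed sign. Cep83 had -0.16 with a dye term and -0.13 by its first probe, and Tctn3 had 0.20 with array weights. With each array left out, the count at an unadjusted p under 0.05 was 3 to 8, and 3 to 8 for positive genes. Counted in either sign, the members' shares were 6.12% to 16.3%, each below the either-sign share of all genes, 8.23% to 21%. No positive share of all genes was counted for these fits. The means then ran from -0.11 to 0.083 for Cep41, -0.17 to 0.39 for Cep83, -0.23 to 0.026 for Invs, -0.047 to 0.41 for Cep290, -0.057 to 0.25 for Cep55, -0.010 to 0.33 for Cep57, -0.38 to 0.21 for Tctn3 and -0.28 to 0.021 for Wdr34. The cause was not tested. The other named members kept their sign under every alternative. The members' median, 0.049, was -0.024 without array 2, 0.24 without array 3 and 0.22 with array 3 turned, and the SD of its array medians was 0.22. No paired analysis was possible because each array is itself the comparison and there is 1 group of arrays.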
